A study of Mus musculus with 4 samples.

Results

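The genes described here are 36 mouse genes of the complement and coagulation cascades, chosen by symbol from the fibrinogen chains, coagulation factors, anticoagulants and fibrinolytic proteins, C1q chains, activating and regulatory complement proteins, and terminal complement proteins. They are 36 of the 33777 genes with a symbol that both liver libraries held, and 2 of the 4201 that both embryo libraries held (Serpinf2 and Vtn), because the embryo values that were used here lie on chromosomes 10, 11 and the start of 12. RNA sequencing of total RNA, extracted with Trizol, covered 4 groups of 1 library each. Embryonic liver was taken at E15.5 (E, embryonic day), with 1 library labelled Adar1-/- Mavs-/- and 1 labelled Adar1-/-. The whole embryo was taken at E11.5, again with 1 library labelled Adar1-/- Mavs-/- and 1 labelled Adar1-/-. Loss of Adar1, the gene of an RNA editing enzyme, is thus labelled in every group, loss of Mavs, the gene of an adaptor in cytosolic RNA sensing, sets the groups of a tissue apart, and no wild-type group was analysed here. The strain label was C57B6/J for both livers and C57B16/N for both embryos. The sources used here do not give how the alleles were made, how many animals went into a library, or how an Adar1-/- liver could be had at E15.5.

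Coagulation is a chain of proteases that ends with thrombin cutting fibrinogen into fibrin. Anticoagulants and plasmin limit the clot, while inhibitors of plasmin protect it. Complement is a second chain of plasma proteins that tags targets with C3 fragments and builds a pore from the terminal components. Hepatocytes make most of these plasma proteins and begin to do so in the fetal liver, which is at that stage also the site of blood formation, whereas C1q comes mainly from macrophages.

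Levels are FPKM (fragments per kilobase of isoform, scaled to the mapped fragments), summed over the isoforms of a gene, so they are per length. Comparisons of level between genes are rough, because short assembled fragments raise a sum and very long ones lower it (Masp2 in the liver labelled Adar1-/- Mavs-/- was 3.18 summed and 18.5 weighted by length). Both of these Masp2 values came from 1 assembled isoform of 17745 bases that runs past the end of the gene. The log2 ratio is that of FPKM plus 1, with the library labelled Adar1-/- Mavs-/- on top and that labelled Adar1-/- from the same tissue below, after a factor that sets the median ratio of genes of at least 5 FPKM in both libraries to 1 (0.995 in liver, 1.34 in embryos). A gene was counted where either library had at least 1 FPKM. No difference has a replicate check, since each group is 1 library, so no test was possible and "2-fold" is a call by size. Ranges after a level are the deposited bounds, which cover the estimate within a library and not the spread between animals. In these bulk samples, fewer cells of a type and less RNA per cell cannot be told apart.

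In liver, Adar and Mavs had values above 0 in both libraries. Only Mavs is labelled differently between the livers, and it was the higher in the liver labelled Adar1-/- Mavs-/-. Adar had 4.11 FPKM in the liver labelled Adar1-/- Mavs-/-, against 5.56 FPKM in the liver labelled Adar1-/-, and 3 of its 8 matched reference isoforms were above 0 in the liver labelled Adar1-/- Mavs-/-, against 0 of 8 in the liver labelled Adar1-/-. Mavs had 9.96 FPKM in the liver labelled Adar1-/- Mavs-/-, against 7.26 FPKM in the liver labelled Adar1-/-, with 2 of 4 matched isoforms above 0 in each. Neither gene can show here whether its deleted part is transcribed, so the libraries are named by their labels throughout. Whether the liver labels are crossed cannot be told from these values, and if they were, every liver log2 ratio would have the opposite sign. Neither was analysed here in the embryo libraries. Alb and Afp, the main plasma proteins of fetal hepatocytes, had 6648 and 3195 FPKM in the liver labelled Adar1-/- Mavs-/-, against 4787 and 3004 FPKM in the liver labelled Adar1-/-, and none of the 16 hepatocyte markers was at 0 in either library. Alb and Afp do not stand for the list, since 10 of the 16 markers had a log2 ratio below 0 and the median was -0.22.

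In liver, 34 of the 36 genes were counted, and C2 and C6 were under the minimum. C8g and C9 were at least 2-fold higher, C4b and F12 were at least 2-fold lower, and 30 genes lay within 2-fold (the levels by gene are plotted for each role group). The 4 called genes are 11.8% of the 34, beside 16.3% of the 13851 genes counted over the whole library (6.53% higher and 9.75% lower). The median log2 ratio of the 34 was -0.08, beside -0.12 for all counted genes, and 19 of the 34 lay below 0, beside 8029 of all 13851. The counts below 0 given later for each role group stand beside that same count. Bounds of both libraries did not overlap for 26 of the 34 genes (76.5%, beside 71.2% of all counted genes), 12 higher and 14 lower. Of the 26 with at least 5 FPKM in both livers, 1 (F12) was 2-fold apart, beside 6.74% of all genes above that level. The share of these genes called was thus not above the background, and the share with bounds apart was close to it. With values taken as TPM (FPKM rescaled to the same sum over all named genes), 1 gene was 2-fold higher and 5 were 2-fold lower, the median was -0.37, and the median of all counted genes moved by -0.26 with it.

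The levels themselves spanned a wide range in both livers. Summed over the 36 genes they came to 2858 FPKM in the liver labelled Adar1-/- Mavs-/-, against 2991 FPKM in the liver labelled Adar1-/-. The 4 highest genes held 59.5% of that sum in the liver labelled Adar1-/- Mavs-/-, against 51.6% in the liver labelled Adar1-/-. Levels of at least 100 FPKM were reached by 7 genes in the liver labelled Adar1-/- Mavs-/-, against 10 genes in the liver labelled Adar1-/-. The order of the genes by level was much alike in both livers (Spearman's rho 0.96 across the 36 genes, a description over genes that share their libraries). In 18 counted genes the whole value came from matched reference isoforms in both libraries, and 0 of these were 2-fold apart (log2 ratios from -0.92 to 0.69). The other 16 took part of their value from isoforms assembled from the reads or from retired identifiers, and all 4 calls were among them. This split was chosen after the values were seen, and over all counted genes the shares called were 17.9% of 4180 and 15.6% of 9671.

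**Figure D1:**
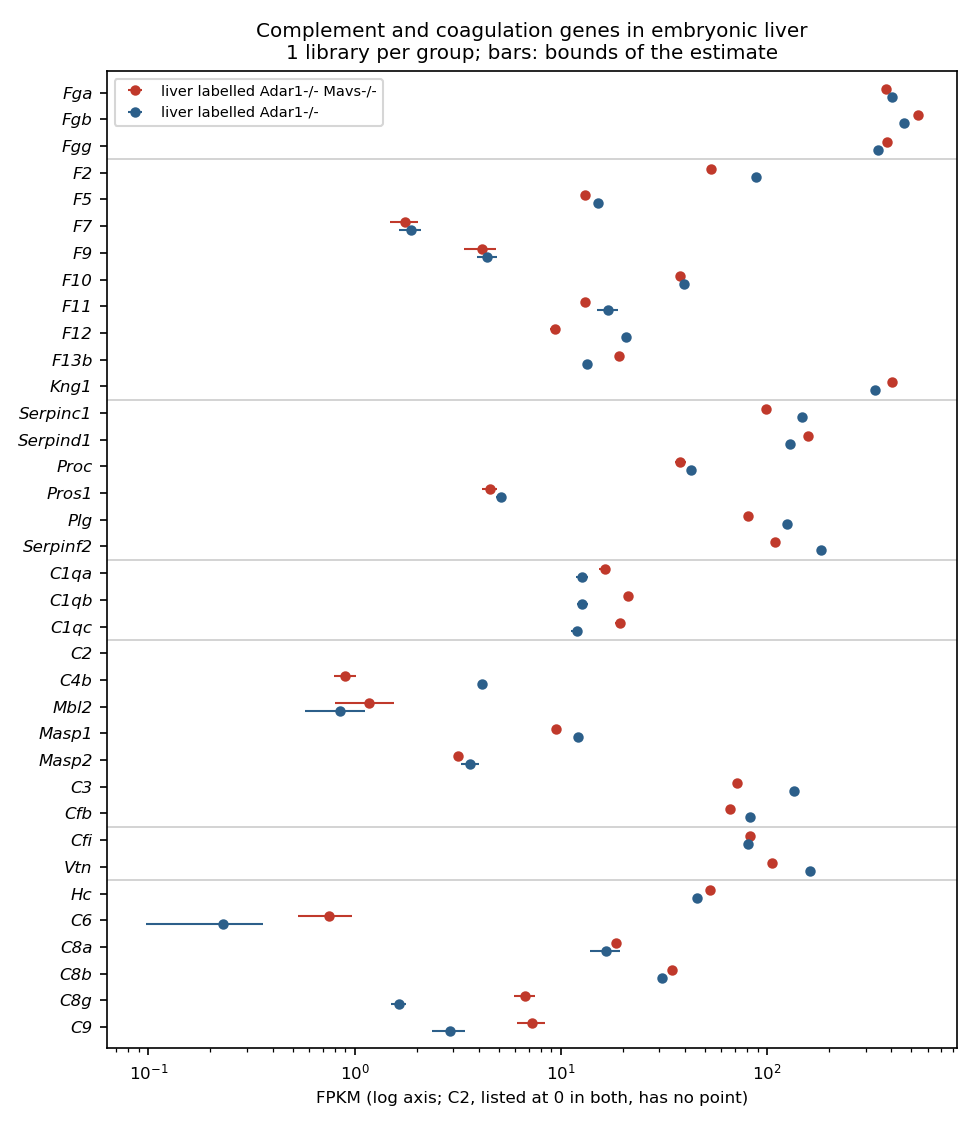
Level of each of the 36 genes in the 2 liver libraries, in FPKM on a log axis, grouped by role, with bars for the deposited bounds and 1 library per group. Fgb, at 537 FPKM in the library labelled Adar1-/- Mavs-/- and 462 FPKM in the library labelled Adar1-/-, is the highest in both, and C2 is listed at 0 in both.

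The promoters of 6 genes are shown because they belong to the genes on which the values below turn: the 3 fibrinogen genes, which lie side by side and differed little, C3, which had the largest log2 ratio in size among genes carried by matched isoforms alone, and Serpinf2 and Vtn, which were measured in both tissues. Each window runs from 250 bases before to 50 bases after the annotated start, 5′ to 3′ on the gene's strand, from RefSeq on GRCm38.p6, a later build than that of the deposited values. Capitals mark matches, on either strand, to any of 6 motifs: HNF1 (GTTAAT), C/EBP (TTNNGCAA), HNF4 (CAAAGTCCA), the GAS element bound by STAT proteins (TTCNNNGAA), the ISRE bound by interferon-activated factors (GAAA, any 2 bases, then GAAA), and the IL-6 response element (CTGGGAA). The windows are chr3:83025903-83026202 (+) for Fga, chr3:83049814-83050113 (-) for Fgb, chr3:83007474-83007773 (+) for Fgg, chr17:57228087-57228386 (-) for C3, chr11:75439452-75439751 (-) for Serpinf2 and chr11:78498870-78499169 (+) for Vtn.
Fga: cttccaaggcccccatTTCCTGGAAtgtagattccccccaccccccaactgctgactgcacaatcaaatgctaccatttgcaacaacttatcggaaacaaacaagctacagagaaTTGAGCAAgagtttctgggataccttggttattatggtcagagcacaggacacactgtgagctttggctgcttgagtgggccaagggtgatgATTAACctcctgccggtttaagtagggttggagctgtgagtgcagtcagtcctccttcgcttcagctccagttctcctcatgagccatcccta
Fgb: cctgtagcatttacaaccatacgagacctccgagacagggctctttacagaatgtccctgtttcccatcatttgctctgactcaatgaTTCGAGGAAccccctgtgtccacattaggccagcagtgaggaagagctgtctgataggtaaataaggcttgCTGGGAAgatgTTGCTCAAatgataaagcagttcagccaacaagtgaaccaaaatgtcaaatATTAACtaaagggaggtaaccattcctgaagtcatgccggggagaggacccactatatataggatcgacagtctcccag
Fgg: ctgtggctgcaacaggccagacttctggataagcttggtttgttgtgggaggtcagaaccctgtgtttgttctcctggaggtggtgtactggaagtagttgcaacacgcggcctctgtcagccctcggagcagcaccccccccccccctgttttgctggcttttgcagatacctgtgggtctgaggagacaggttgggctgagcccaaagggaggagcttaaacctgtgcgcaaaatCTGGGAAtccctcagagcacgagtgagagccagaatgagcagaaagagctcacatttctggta
C3: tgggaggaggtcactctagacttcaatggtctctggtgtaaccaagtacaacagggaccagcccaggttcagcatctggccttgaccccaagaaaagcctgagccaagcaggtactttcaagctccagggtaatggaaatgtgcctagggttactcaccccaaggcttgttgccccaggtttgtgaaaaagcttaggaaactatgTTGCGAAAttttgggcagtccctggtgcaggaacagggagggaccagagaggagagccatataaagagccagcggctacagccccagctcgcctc
Serpinf2: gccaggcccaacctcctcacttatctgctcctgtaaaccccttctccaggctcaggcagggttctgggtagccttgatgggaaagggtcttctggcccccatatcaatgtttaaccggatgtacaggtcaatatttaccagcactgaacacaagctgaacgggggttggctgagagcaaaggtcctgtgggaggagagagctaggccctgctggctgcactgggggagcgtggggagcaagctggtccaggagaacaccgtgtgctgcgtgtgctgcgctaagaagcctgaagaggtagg
Vtn: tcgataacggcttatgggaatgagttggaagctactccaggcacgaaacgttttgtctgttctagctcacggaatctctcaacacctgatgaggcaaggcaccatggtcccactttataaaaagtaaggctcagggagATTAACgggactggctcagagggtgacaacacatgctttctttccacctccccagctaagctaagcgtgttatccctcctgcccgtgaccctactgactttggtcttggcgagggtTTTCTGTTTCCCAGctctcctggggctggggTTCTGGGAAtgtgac

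Fga held an HNF1 match 43 bases before the start, a C/EBP match 135 bases before it and a GAS match 234 bases before it. Fgb held the same 3 motifs at 29, 80 and 162 bases before the start, and an IL-6 element at 91 bases. Fgg held 1 match, an IL-6 element 13 bases before the start, and C3 held 1, a C/EBP match at 45 bases. Vtn held an HNF1 match 112 bases before the start, and, after the start, an ISRE that overlaps an IL-6 element and a GAS match that overlaps another IL-6 element. Serpinf2 held none of the 6, which says only that these letters are not in this window. The table had windows for 27 of the 36 genes, 28 windows in all. HNF1 was found in 28.6% of them and in 7.10% of the 32851 windows in the table, GAS in 25.0% and 8.30%, C/EBP in 25.0% and 10.8%, the IL-6 element in 21.4% and 11.1%, the ISRE in 3.57% and 3.44%, and HNF4 in 0 of the 28 and 0.475%. A match is a description of letters, not a bound site.

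The fibrinogen chains, which assemble into the clot protein, were the most abundant group, and their log2 ratios were small, from -0.10 to 0.21. Their genes lie together on chromosome 3 in mm9, Fgg from 82811781 to 82818975, Fga from 82830075 to 82837537 and Fgb from 82846169 to 82853725. Fgb, the beta chain, had 537 FPKM (532 to 541) in the liver labelled Adar1-/- Mavs-/-, against 462 FPKM (458 to 465) in the liver labelled Adar1-/-, a log2 ratio of 0.21. Fgg, the gamma chain, had 381 FPKM in the liver labelled Adar1-/- Mavs-/-, against 344 FPKM in the liver labelled Adar1-/-, a log2 ratio of 0.14. Fga, the alpha chain, had 378 FPKM in the liver labelled Adar1-/- Mavs-/-, against 405 FPKM in the liver labelled Adar1-/-, a log2 ratio of -0.10. So the chains did not share a direction. The signs of Fgb and Fgg turned under the TPM scaling, and that of Fga with isoforms of status OK only. The level of Fgb relative to Fga was 1.42 in the liver labelled Adar1-/- Mavs-/-, against 1.14 in the liver labelled Adar1-/-.

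Among the coagulation factors, 7 of 9 lay below 0 and the median log2 ratio was -0.08, while 1, F12, was 2-fold lower. F2, prothrombin, had 53.2 FPKM (51.8 to 54.7) in the liver labelled Adar1-/- Mavs-/-, against 88.6 FPKM (86.9 to 90.2) in the liver labelled Adar1-/-, a log2 ratio of -0.73. Its 2 isoforms were both reference transcripts, and the longer had 17.2 FPKM in the liver labelled Adar1-/- Mavs-/-, against 16.4 FPKM in the liver labelled Adar1-/-. The difference therefore lay in the value given to the shorter. The isoforms have 1988 and 1969 bases, and the longer was not of status OK in the liver labelled Adar1-/-. How reads were split between them was not tested. F12, the contact factor that starts the intrinsic pathway, lies on chromosome 13 from 55519319 to 55528154 (mm9). It had 9.34 FPKM (8.82 to 9.86) in the liver labelled Adar1-/- Mavs-/-, against 20.7 FPKM (19.9 to 21.4) in the liver labelled Adar1-/-, a log2 ratio of -1.07. Reads assembled into an isoform of 2205 bases gave 14.0 of those 20.7 FPKM. With matched reference isoforms alone, which leave that isoform out, the log2 ratio was 0.42. This was the only 1 of 10 settings in which the sign turned. The log2 ratio was -0.57 with the most abundant isoform and -1.16 with length weighting. The direction of F12 thus depends on whether the assembled isoform is included.

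Kng1, the kininogen from which kallikrein frees bradykinin, had the second highest summed FPKM of the 36 in the liver labelled Adar1-/- Mavs-/-, at 404 FPKM, against 333 FPKM in the liver labelled Adar1-/-. Its log2 ratio of 0.27 turned sign to -0.05 under the TPM scaling and to -1.39 with isoforms of status OK only, and reads may be split with its near copy Kng2. F13b, the carrier subunit of the fibrin-crosslinking factor, had 19.0 FPKM in the liver labelled Adar1-/- Mavs-/-, against 13.4 FPKM in the liver labelled Adar1-/-, a log2 ratio of 0.47 that stayed above 0 under every setting that gave a value. F11, which activates F9, had 13.1 FPKM in the liver labelled Adar1-/- Mavs-/-, against 16.9 FPKM in the liver labelled Adar1-/-, a log2 ratio of -0.35 that was -1.04 with matched isoforms only and 0.27 with isoforms of status OK only. F5, the cofactor of F10, had 13.1 FPKM in the liver labelled Adar1-/- Mavs-/-, against 15.1 FPKM in the liver labelled Adar1-/-, a log2 ratio of -0.20.

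The bounds of both livers overlapped for the factors F7, F9 and F10. F10, which activates prothrombin, had 37.8 FPKM in the liver labelled Adar1-/- Mavs-/-, against 39.6 FPKM in the liver labelled Adar1-/-. F9, whose loss is a cause of haemophilia, had 4.12 FPKM in the liver labelled Adar1-/- Mavs-/-, against 4.41 FPKM in the liver labelled Adar1-/-. Matched isoforms alone put F9 at 1.06 on the log2 scale, from 1.09 FPKM in the liver labelled Adar1-/- Mavs-/- and 0 in the liver labelled Adar1-/-. F7, the partner of tissue factor, had 1.76 FPKM in the liver labelled Adar1-/- Mavs-/-, against 1.88 FPKM in the liver labelled Adar1-/-. F7 and F10 are neighbours, 1498 bases apart, and the level of F10 relative to F7 was 21.4 in the liver labelled Adar1-/- Mavs-/-, against 21.1 in the liver labelled Adar1-/-. With isoforms of status OK only, F10 had a log2 ratio of 1.64, so its small difference holds for the full sum and not for that setting.

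Of the anticoagulant and fibrinolytic genes, 5 of 6 lay below 0, the median log2 ratio was -0.38, and none reached 2-fold. Their summed level was 489 FPKM in the liver labelled Adar1-/- Mavs-/-, against 631 FPKM in the liver labelled Adar1-/-. Serpinf2, the inhibitor of plasmin, had 109 FPKM (107 to 110.4) in the liver labelled Adar1-/- Mavs-/-, against 182 FPKM (180 to 184) in the liver labelled Adar1-/-, a log2 ratio of -0.74. Plg, the precursor of plasmin, had 80.9 FPKM in the liver labelled Adar1-/- Mavs-/-, against 126 FPKM in the liver labelled Adar1-/-, a log2 ratio of -0.63. Serpinc1, antithrombin, had 98.3 FPKM in the liver labelled Adar1-/- Mavs-/-, against 147 FPKM in the liver labelled Adar1-/-, a log2 ratio of -0.58. Each of the 3 came from 1 reference isoform in each liver and stayed below 0 under every setting that gave a value.

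Serpind1, a thrombin inhibitor that acts with heparin-like chains, was the exception of that group. It had 159 FPKM in the liver labelled Adar1-/- Mavs-/-, against 128 FPKM in the liver labelled Adar1-/-, a log2 ratio of 0.29 whose sign turned under the TPM scaling. Proc, the protease that inactivates F5, had 38.0 FPKM in the liver labelled Adar1-/- Mavs-/-, against 42.8 FPKM in the liver labelled Adar1-/-. Its cofactor Pros1 had 4.52 FPKM in the liver labelled Adar1-/- Mavs-/-, against 5.12 FPKM in the liver labelled Adar1-/-, and the bounds of Pros1 overlapped between the livers.

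The C1q chains, which form the recognition molecule of the classical pathway, were higher together, by less than 2-fold. C1qa had 16.3 FPKM (15.3 to 17.3) in the liver labelled Adar1-/- Mavs-/-, against 12.7 FPKM (11.9 to 13.5) in the liver labelled Adar1-/-, a log2 ratio of 0.33. C1qb had 21.3 FPKM (20.1 to 22.4) in the liver labelled Adar1-/- Mavs-/-, against 12.7 FPKM (11.9 to 13.5) in the liver labelled Adar1-/-, a log2 ratio of 0.69. C1qc had 19.3 FPKM (18.3 to 20.3) in the liver labelled Adar1-/- Mavs-/-, against 11.9 FPKM (11.2 to 12.6) in the liver labelled Adar1-/-, a log2 ratio of 0.65. The bounds were apart for all 3, and all 3 stayed above 0 under every setting that gave a value. Of 10 macrophage markers, 9 were counted, 3 of them 2-fold higher and none 2-fold lower, with a median log2 ratio of 0.70 and a summed level of 187 FPKM in the liver labelled Adar1-/- Mavs-/-, against 142 FPKM in the liver labelled Adar1-/-. None of these markers was at 0 in the liver labelled Adar1-/- Mavs-/-, and Cd68 was listed at 0 in the liver labelled Adar1-/-. Of the 9, Marco alone lay below 0, at -0.39, and Lyz2 had a log2 ratio of 0.24. Their part in the C1q values was not tested.

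**Figure D2:**
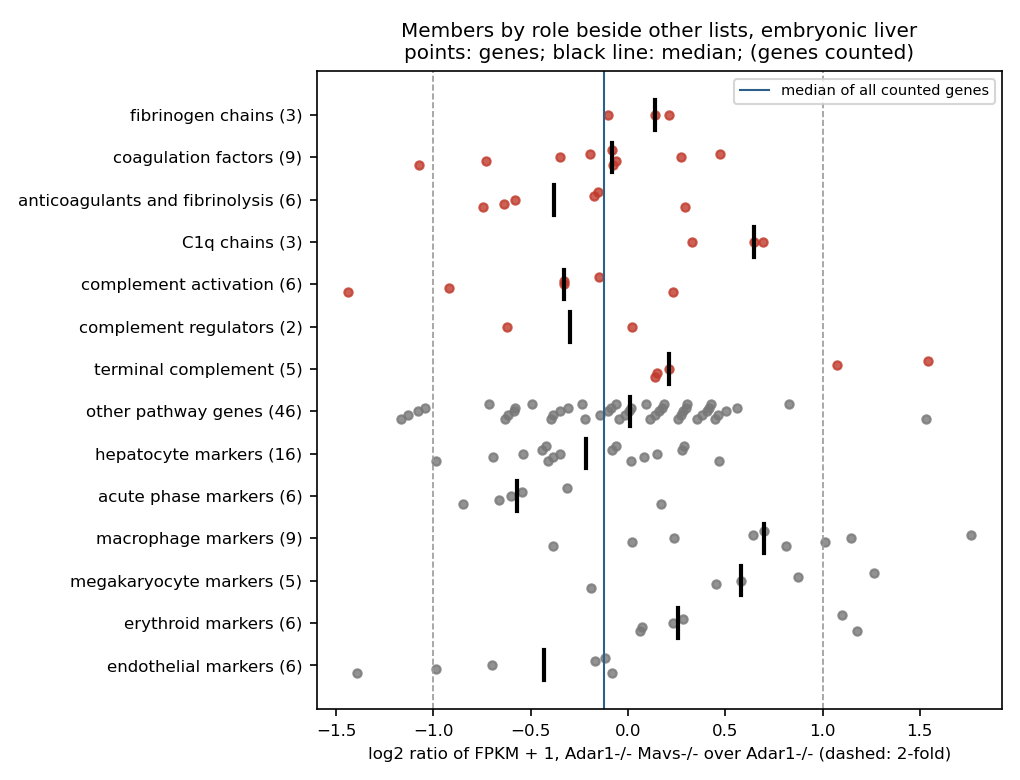
Log2 ratio of every counted gene in liver by role group and by marker list, as Adar1-/- Mavs-/- over Adar1-/-, with a black line at each median and a blue line at the median of all counted genes. C1q chains (median 0.65) and macrophage markers (median 0.70) lie above 0, and anticoagulants and fibrinolysis (median -0.38) and acute phase genes (median -0.57) lie mostly below it.

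Complement activation showed lower levels in 5 of its 6 counted genes (median log2 ratio -0.33), with a summed level of 152 FPKM in the liver labelled Adar1-/- Mavs-/-, against 238 FPKM in the liver labelled Adar1-/-. C3, the central component that all pathways cleave, lies on chromosome 17 from 57343397 to 57367559 (mm9) and made up most of that difference. It had 71.2 FPKM (70.3 to 72.1) in the liver labelled Adar1-/- Mavs-/-, against 135 FPKM (134 to 136) in the liver labelled Adar1-/-, a log2 ratio of -0.92 carried by 1 reference isoform. Cfb, the protease of the alternative pathway, had 65.9 FPKM in the liver labelled Adar1-/- Mavs-/-, against 82.6 FPKM in the liver labelled Adar1-/-, a log2 ratio of -0.33. The level of Cfb relative to its partner C3 was 0.925 in the liver labelled Adar1-/- Mavs-/-, against 0.611 in the liver labelled Adar1-/-.

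C4b, which forms the classical and lectin pathway convertase with C2, was the only gene called 2-fold lower under every setting that counted it. It lies on chromosome 17 from 34865325 to 34880827 (mm9), and had 0.902 FPKM (0.793 to 1.01) in the liver labelled Adar1-/- Mavs-/-, against 4.14 FPKM (3.96 to 4.32) in the liver labelled Adar1-/-, a log2 ratio of -1.44. The range over the alternative settings was -2.09 to -1.41. Its near copy C4a had 0.278 FPKM in the liver labelled Adar1-/- Mavs-/-, against 1.63 FPKM in the liver labelled Adar1-/-, and reads may be split between them, so each value is uncertain. C2 was listed at 0 in both livers, with 0 of 8 matched isoforms above 0. C2 lies 85 bases from Cfb and in the same Cufflinks gene, and whether its reads were counted under Cfb was not tested.

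The lectin pathway genes stood under C3 and Cfb in both livers. Masp1, a protease that travels with mannose-binding lectin, had 9.48 FPKM in the liver labelled Adar1-/- Mavs-/-, against 12.1 FPKM in the liver labelled Adar1-/-, a log2 ratio of -0.33. Masp2, which cleaves C4 and C2, had 3.18 FPKM in the liver labelled Adar1-/- Mavs-/-, against 3.63 FPKM in the liver labelled Adar1-/-. In both livers the whole Masp2 value came from assembled isoforms, of 15005 to 18216 bases. They run past the end of the gene at 147989608 (mm9), to 148000930 or 148001198, so how much of the value is Masp2 was not tested. Mbl2, the lectin itself, had 1.18 FPKM in the liver labelled Adar1-/- Mavs-/-, against 0.849 FPKM in the liver labelled Adar1-/-. The bounds of Masp2 and Mbl2 overlapped between the livers. For the regulators, Cfi, which degrades C3b, had 82.4 FPKM in the liver labelled Adar1-/- Mavs-/-, against 80.7 FPKM in the liver labelled Adar1-/-, and its bounds overlapped too. Vtn, vitronectin, which binds the terminal complex, had 105 FPKM (102.5 to 108) in the liver labelled Adar1-/- Mavs-/-, against 162 FPKM (158 to 165) in the liver labelled Adar1-/-, a log2 ratio of -0.62 that was -1.84 with matched isoforms only.

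In the terminal pathway none of the 5 counted genes lay below 0, and the summed level was 121 FPKM in the liver labelled Adar1-/- Mavs-/-, against 97.7 FPKM in the liver labelled Adar1-/-. Hc, the gene of C5, had 53.1 FPKM in the liver labelled Adar1-/- Mavs-/-, against 45.5 FPKM in the liver labelled Adar1-/-, a log2 ratio of 0.21 that was -0.65 with matched isoforms only. C8a and C8b, adjacent genes for the alpha and beta chains of C8, had log2 ratios of 0.14 and 0.15. The level of C8b relative to C8a was 1.87 in the liver labelled Adar1-/- Mavs-/-, against 1.86 in the liver labelled Adar1-/-. Hc, C8a and C8b turned sign under the TPM scaling, and the bounds of C8a overlapped. C6 had 0.750 FPKM in the liver labelled Adar1-/- Mavs-/-, against 0.229 FPKM in the liver labelled Adar1-/-, and was not counted.

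Both genes called 2-fold higher were terminal components, and both calls rest on how isoforms are summed. C8g, the gamma chain of C8, lies on chromosome 2 from 25354171 to 25357239 (mm9) and had 6.71 FPKM (5.95 to 7.48) in the liver labelled Adar1-/- Mavs-/-, against 1.64 FPKM in the liver labelled Adar1-/-, a log2 ratio of 1.54. Reference isoforms of C8g gave 5.74 FPKM in the liver labelled Adar1-/- Mavs-/-. In the liver labelled Adar1-/-, 0 of the 7 matched isoforms were above 0, and the whole value came from an assembled isoform of 4784 bases, from 25356351 to 25361134, that runs past the end of C8g over the neighbour Fbxw5. Weighting each isoform by its length, an alternative chosen after seeing the data, gave a log2 ratio of 0.35. That weighted value includes the assembled isoform that runs over Fbxw5. With matched reference isoforms alone, at 0 in the liver labelled Adar1-/-, the log2 ratio of C8g was 2.74. An assembled isoform of 4772 bases over nearly the same span gave 0.969 FPKM in the liver labelled Adar1-/- Mavs-/-. Both start after the ends, at 25355775 and 25356133, of the C8g reference isoforms above 0 in that liver. Apart from matched isoforms alone, every setting takes the value of the liver labelled Adar1-/- from such an isoform. The log2 ratio stayed above 0 under every setting, but how much of that value is C8g and not Fbxw5 was not tested. C9, which polymerises into the pore, lies on chromosome 15 from 6395327 to 6448744 and had 7.24 FPKM (6.13 to 8.35) in the liver labelled Adar1-/- Mavs-/-, against 2.90 FPKM (2.36 to 3.43) in the liver labelled Adar1-/-, a log2 ratio of 1.08. Assembled fragments of 732 and 428 bases gave 2.27 and 3.28 of the 7.24 FPKM. The log2 ratio of C9 was -1.25 with matched reference isoforms alone and 0.50 with length weighting.

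**Figure D3:**
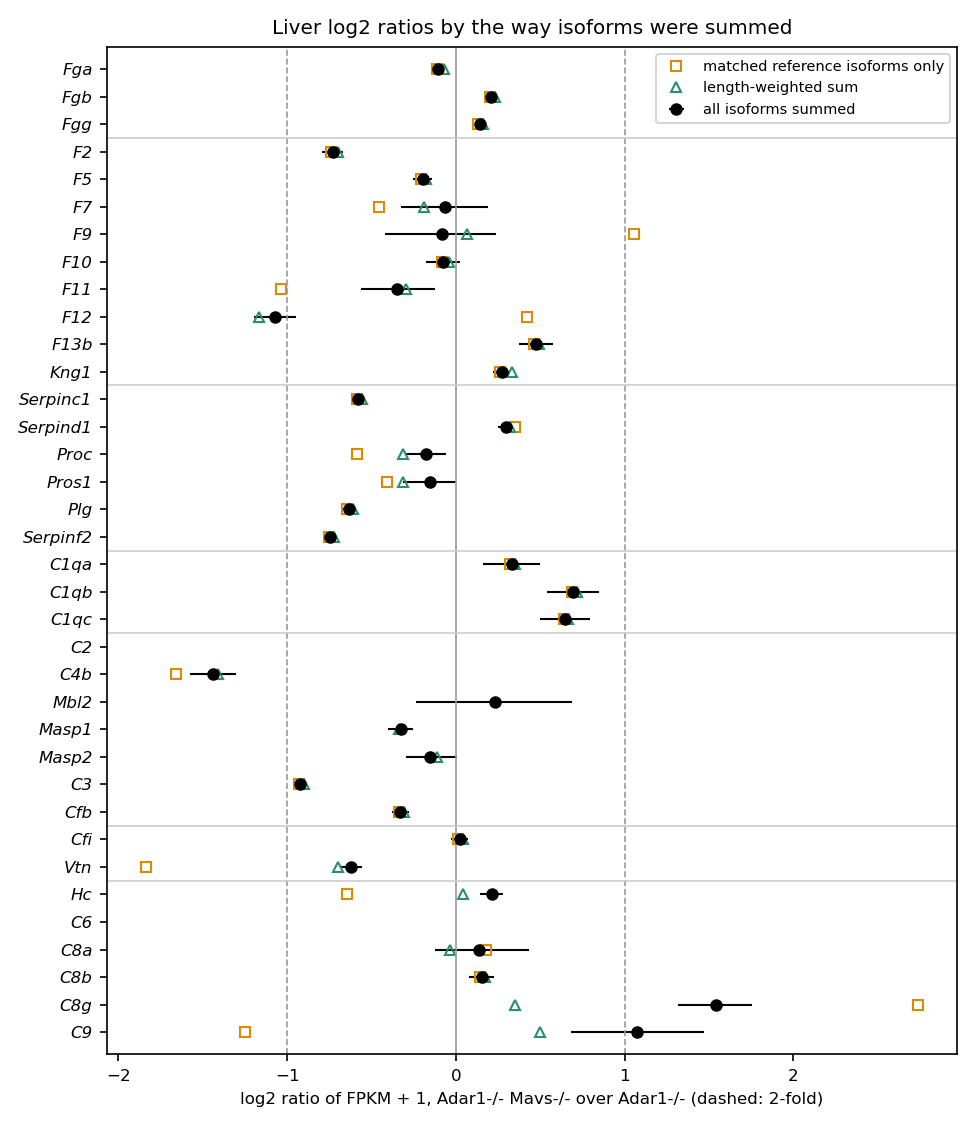
Log2 ratio of each gene in liver, as Adar1-/- Mavs-/- over Adar1-/-, with all isoforms summed (circles, bars from the bounds), matched reference isoforms only (squares) and a length-weighted sum (triangles). C4b stays below -1 under each. F12 and C9 change sign when only matched reference isoforms are used (0.42 and -1.25), as do F9 (1.06) and Hc (-0.65). The matched isoforms of C9 are at 0 in the liver labelled Adar1-/- Mavs-/-, and those of F9 and C8g in the liver labelled Adar1-/-. C8g lies at 0.35 with length weighting and at 2.74 with matched reference isoforms only.

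Serpinf2 and Vtn were the genes that could be followed in whole embryos, where they stood at opposite sides of 0. Over the 2 embryo libraries 16.2% of counted genes were 2-fold apart (6.42% higher and 9.76% lower). Serpinf2, on chromosome 11 from 75245234 to 75253093 (mm9), had 6.09 FPKM (5.65 to 6.54) in the embryo labelled Adar1-/- Mavs-/-, against 2.97 FPKM (2.57 to 3.36) in the embryo labelled Adar1-/-. Its log2 ratio was 1.21, from 1 reference isoform in each. Bounds were apart for both genes, as for 59.1% of counted embryo genes. With FPKM as deposited it was 0.84 and with TPM 0.50, settings that move the median of all counted embryo genes by -0.35 and -0.89, so the 2-fold call rests on the scaling. Of all called embryo genes 39.7% were higher, 20.4% as deposited and 8.98% with TPM.

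Vtn, on chromosome 11 from 78312593 to 78315826 (mm9), had 11.8 FPKM (11.1 to 12.5) in the embryo labelled Adar1-/- Mavs-/-, against 97.1 FPKM (88.5 to 106) in the embryo labelled Adar1-/-, a log2 ratio of -2.55. It alone passed 5 FPKM in both embryos, where 8.02% of genes were 2-fold apart. In the embryo labelled Adar1-/- Mavs-/- the value came from the full-length reference isoform of 1744 bases. In the embryo labelled Adar1-/- it came from 4 shorter isoforms, of which an assembled one of 298 bases at the end of the gene had 60.5 FPKM. Unmatched isoforms held 81.0% of that embryo's value. With length weighting the levels were 11.8 in the embryo labelled Adar1-/- Mavs-/- and 27.6 in the embryo labelled Adar1-/-, a log2 ratio of -0.75, and with matched isoforms alone the log2 ratio was -0.26. The direction held under each of these settings and the size did not. Apoh, a hepatocyte marker, was listed at 0 in both embryos. The macrophage marker Lyz2 had 2.99 FPKM in the embryo labelled Adar1-/- Mavs-/-, against 0.960 FPKM in the embryo labelled Adar1-/-, and Cd68 had 0.928 FPKM in the embryo labelled Adar1-/- Mavs-/- and was listed at 0 in the embryo labelled Adar1-/-.

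**Figure D4:**
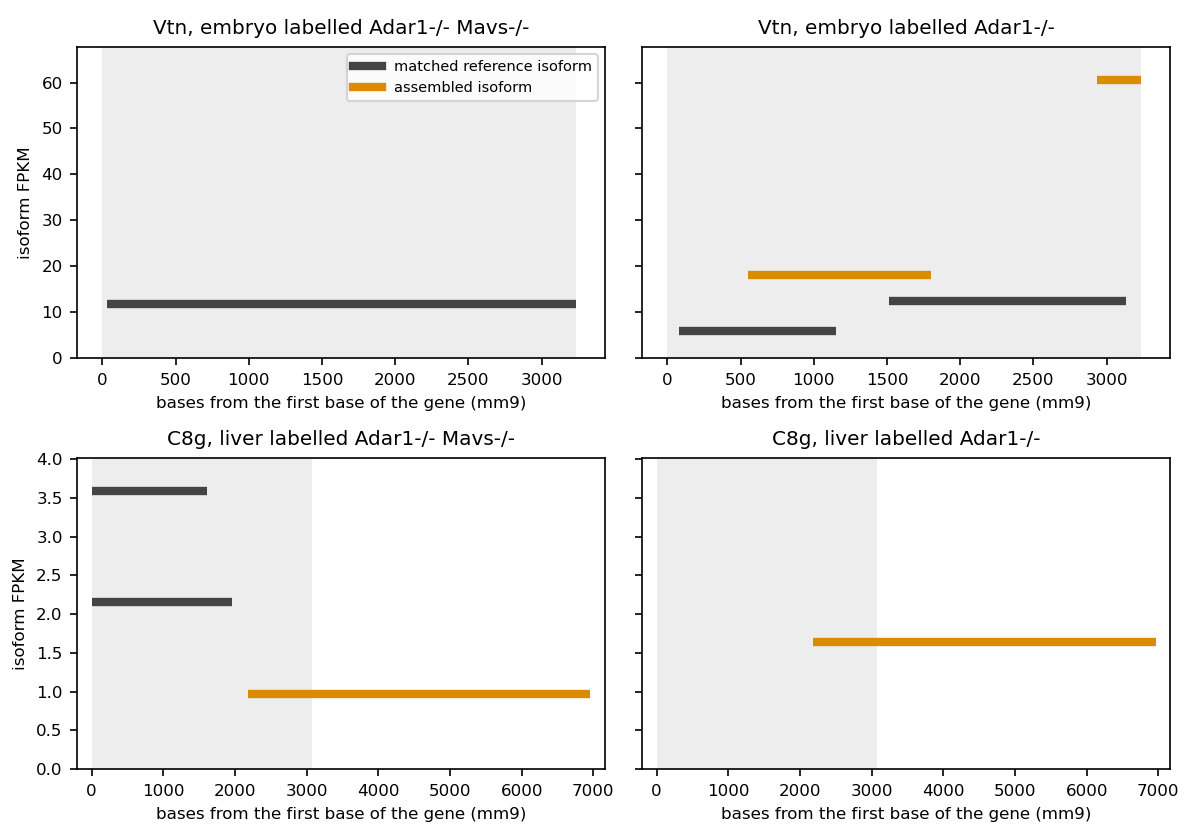
Isoforms above 0 FPKM of Vtn in the embryos (top) and of C8g in the livers (bottom), by distance in bases from the first base of the gene (mm9), with the library labelled Adar1-/- Mavs-/- at the left and the shaded area marking the gene. In the embryo labelled Adar1-/- a fragment of 298 bases stands at 60.5 FPKM. In the liver labelled Adar1-/- the only isoform counted under C8g, of 4784 bases, runs beyond the gene.

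A list of 60 other genes of the pathway was also measured in liver. All 60 were in the tables, 3 of them listed at 0 in each liver, and 46 were counted. Of these 1 was 2-fold higher and 4 were 2-fold lower, beside 6.53% higher and 9.75% lower over all counted genes, and the median log2 ratio was 0.01, beside -0.12 over all counted genes. Vsig4, a complement receptor of tissue macrophages, had 1.93 FPKM in the liver labelled Adar1-/- Mavs-/-, against 0.00858 FPKM in the liver labelled Adar1-/-, a log2 ratio of 1.53. Clu, clusterin, an inhibitor of the terminal complex, had 13.3 FPKM in the liver labelled Adar1-/- Mavs-/-, against 30.2 FPKM in the liver labelled Adar1-/-, a log2 ratio of -1.13. C1qbp, a mitochondrial protein that binds C1q, had 14.6 FPKM in the liver labelled Adar1-/- Mavs-/-, against 31.9 FPKM in the liver labelled Adar1-/-, a log2 ratio of -1.08. C4a had a log2 ratio of -1.04, and Vwf, the platelet-binding carrier of F8, one of -1.17 with bounds that overlapped. Vwf had 5.30 FPKM in the liver labelled Adar1-/-, with bounds from 0 to 286 FPKM. None of its value was of status OK in either liver, so its call lower is not secure.

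The 6 most abundant genes of that list lay within 2-fold. Serpina1b, Serpina1a and Serpina1d, near copies of the elastase inhibitor gene among which reads may be split, had log2 ratios of 0.38, 0.30 and 0.41. Cpb2, which protects fibrin from plasmin, had 66.5 FPKM in the liver labelled Adar1-/- Mavs-/-, against 66.9 FPKM in the liver labelled Adar1-/-. Kng2 had a log2 ratio of -0.10 and Serpina10, an inhibitor of F10, one of -0.06.

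Marker lists that moved between the livers stand beside all of these values, and their part in them was not tested. None of the 16 hepatocyte markers was 2-fold apart (median log2 ratio -0.22). Of 10 acute phase genes, which like fibrinogen and C3 respond to inflammation, 6 were counted and none was 2-fold apart, 1 and 2 of the 10 were at 0 in the livers labelled Adar1-/- Mavs-/- and Adar1-/-, and the median was -0.57, with a summed level of 124 FPKM in the liver labelled Adar1-/- Mavs-/-, against 198 FPKM in the liver labelled Adar1-/-. Hpx, which binds haem, had a log2 ratio of -0.85, and Lcn2 one of -0.31. Of 6 skeletal muscle markers 5 had values, and they summed to 9.32 FPKM in the liver labelled Adar1-/- Mavs-/-, against 122 FPKM in the liver labelled Adar1-/-, with 4 of 4 counted genes 2-fold lower and 1 listed at 0 in each. Mylpf, a fast muscle myosin chain, had 8.93 FPKM in the liver labelled Adar1-/- Mavs-/-, against 74.7 FPKM in the liver labelled Adar1-/-. The 5 megakaryocyte markers (1 of them 2-fold higher) summed to 130 FPKM in the liver labelled Adar1-/- Mavs-/-, against 65.5 FPKM in the liver labelled Adar1-/- (Pf4 0.87 and Ppbp 1.26 in log2 ratio). Of 8 erythroid markers 6 had values, 2 were 2-fold higher, and they summed to 2599 FPKM in the liver labelled Adar1-/- Mavs-/-, against 2004 FPKM in the liver labelled Adar1-/- (Slc4a1 0.07 in log2 ratio). The 6 endothelial markers, 1 of them 2-fold lower, summed to 58.8 FPKM in the liver labelled Adar1-/- Mavs-/-, against 89.2 FPKM in the liver labelled Adar1-/- (Pecam1 -0.17 and Stab2 -0.98). The 6 neutrophil markers, 1 of them 2-fold lower, summed to 818 FPKM in the liver labelled Adar1-/- Mavs-/-, against 695 FPKM in the liver labelled Adar1-/- (S100a8 0.70 and S100a9 0.44), but 4 of the 6 lay below 0 and the median was -0.35, with Prtn3 listed at 0 in the liver labelled Adar1-/- Mavs-/-.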

How the data were processed

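The deposited values are FPKM per isoform, with a lower and an upper bound, a status and a coverage value, per the file headers. As a rough measure of depth, the median of coverage over FPKM was taken across isoforms above 0. It was 7.13 in the liver labelled Adar1-/- Mavs-/-, 8.58 in the liver labelled Adar1-/-, 5.62 in the embryo labelled Adar1-/- Mavs-/- and 3.48 in the embryo labelled Adar1-/-. The submitters' processing notes name TopHat 1.4.0, Cufflinks 2.2.1 and mm9 without roles. The sources used here give neither read totals nor whether strand was kept, so overlapping antisense genes may share reads.

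Ensembl transcript identifiers were given symbols from GENCODE M21 (86.7% matched in each liver library), and an unmatched isoform went to the symbol of its Cufflinks gene that it overlapped best. Isoforms without a symbol entered no gene value. FPKM were summed per gene, bounds were combined in quadrature, and log2 ratios used a pseudocount of 1, which understates differences of low genes. Calls are by size, with no p-value. The calculation was tested on simulated data, with Python 3.11.15, pandas and numpy. All 36 members were named, with the other pathway genes that passed 1 FPKM and 2-fold or were the 6 highest, and the 2 highest of each marker list, except 1 erythroid marker that is not reported here. Other marker genes named (Cd68, Prtn3, Apoh) are those listed at 0, chosen after their values were seen. Members and lists were chosen with earlier results of these data known. Alternatives were 9 planned settings and 1 added after seeing the data, the length-weighted sum.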

Additional observations from a re-analysis of the deposited data

Results flagged for a closer look

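Serpinf2, the plasmin inhibitor, lay in opposite directions in the tissues. Its log2 ratio, library labelled Adar1-/- Mavs-/- over library labelled Adar1-/-, was 1.21 in embryos at E11.5 and -0.74 in livers at E15.5, with bounds apart in each tissue. The difference was not tested, since each group has 1 library, and tissue, age and strain label differ together between the pairs.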

How the results depend on the processing

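Replicates could not be left out. No paired analysis was possible because each group has 1 library. Of the 34 counted members in liver, 19 kept their sign under every setting that gave a value (13 below 0 and 6 above), and 22 stayed within 2-fold. The same was not counted over all genes, and the number of settings that gave a value differed by gene (5 for Mbl2 and 10 for F2). The 2 calls higher became 1 with TPM, 0 with the most abundant isoform and 0 with length weighting. Calls higher over all counted genes were 905 of 13851 at first and 628 of 13167 with TPM. They were 836 of 12788 with the most abundant isoform and 843 of 13734 with length weighting. The 2 calls lower became 5 with TPM, 1 with a minimum of 5 FPKM and 4 with matched reference isoforms only. Calls lower over all counted genes moved as well, 1350 of 13851 at first, 1925 of 13167 with TPM and 1902 of 10856 with matched isoforms only. The median of -0.08 became -0.37 with TPM. F12 reversed to 0.42 and C9 to -1.25 with matched isoforms only, where C9 had none above 0 in the liver labelled Adar1-/- Mavs-/-. For the other pathway genes, the 1 call higher became 2 with a pseudocount of 0.1, 0 with a minimum of 5 FPKM, 0 with matched isoforms only and 3 with isoforms of status OK only. Their 4 calls lower became 2 with status OK only, 1 with the most abundant isoform and 1 with length weighting, and their median of 0.01 became -0.28 with TPM. Over all counted genes, calls higher were 1070 of 13851 with a pseudocount of 0.1 and 532 of 8739 with a minimum of 5 FPKM. With status OK only, 1108 of 11240 were called higher and 1302 lower. Calls lower were 1498 of 12788 with the most abundant isoform and 1268 of 13734 with length weighting. In embryos, Serpinf2 (1.21) was 0.84 as deposited and 0.50 with TPM. Vtn (-2.55) was -2.94 as deposited, -3.54 with TPM, -0.26 with matched isoforms only, -1.92 with the most abundant isoform and -0.75 with length weighting. Over all counted liver genes, calls higher were 40.1% of calls, 24.6% with TPM and 28.9% with matched isoforms only. Many abundant isoforms carry the status LOWDATA, so restricting to status OK removed whole genes, such as Plg and Serpinc1.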

Other observations

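Genes that activate the vitamin K-dependent clotting factors or carry clotting factors out of the cell were low to moderate in liver. Vkorc1, which recycles vitamin K, had 26.3 FPKM in the liver labelled Adar1-/- Mavs-/-, against 29.1 FPKM in the liver labelled Adar1-/-, with overlapping bounds. Lman1 and Mcfd2, which together carry F5 and F8 out of the endoplasmic reticulum, had log2 ratios of -0.39 and -0.40, with bounds apart. Among membrane regulators of complement, Cd55 had 18.3 FPKM in the liver labelled Adar1-/- Mavs-/-, against 12.9 FPKM in the liver labelled Adar1-/-. Cd59a had 23.8 FPKM in the liver labelled Adar1-/- Mavs-/-, against 18.3 FPKM in the liver labelled Adar1-/-. Serping1, which inhibits C1 and contact proteases, had 11.6 FPKM in the liver labelled Adar1-/- Mavs-/-, against 18.5 FPKM in the liver labelled Adar1-/-. These genes were chosen after their values were seen, and none was 2-fold apart.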
